A study of Canis lupus familiaris with 48 samples.

Results

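The CpGs described here are those with an intermediate mean methylation level over the dogs in buccal DNA that lie outside the 14 dog amplicons the study lists. Single dogs could be close to unmethylated or to fully methylated at them. Methylation was measured by bisulphite PCR (Bis-PCR) sequencing in 48 dogs. After bisulphite treatment an unmethylated cytosine is read as thymine and a methylated one still as cytosine, so the methylation level of a CpG in a dog is the share of its reads that show cytosine. Dogs with fewer than 50 reads at a CpG were left out there, and CpGs with fewer than 24 remaining dogs were left out altogether. A tested CpG was taken as a member when its mean level over the remaining dogs was at least 20% and under 80%. This rule, after 5 intervals were left out, gave 288 members among 1105 tested CpGs, of which 831 lay outside the listed amplicons. The members fell into 52 groups on 23 chromosomes, where a group is a run of tested CpGs with no gap over 300 bp. All positions are on canFam3, and neither genes nor sequence were assigned to them because no genome or annotation of that build was used here.

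The dogs were 24 flat-coated retrievers (FCR) and 24 miniature long-haired dachshunds (MLHD), all without signs of disease when sampled. Ages ran from 0.25 to 12.03 years in FCR (median 4.305 years) and from 0.88 to 13.98 years in MLHD (median 10.575 years), with 14 females and 10 males in each breed. Each dog gave 1 buccal sample, and each sample is 1 library. Summed over all CpGs, single dogs had 775947 to 6004037 reads. The lowest total belonged to MLHD replicate 28, a male of 1.93 years, which reached 50 reads at 105 of the 288 members, with a median coverage of 14 reads over them. In the other dogs the median coverage over the members ran from 1519.5 to 4945 reads. Because copies of 1 molecule could not be told from reads of different molecules, any limit set from read counts covers counting error only. No 2 files held identical values.

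DNA methylation at CpGs is copied through cell division, and most CpGs of a differentiated cell are either methylated or unmethylated on nearly all alleles. An intermediate level in bulk DNA arises when cells differ, when the alleles of a cell differ, as at imprinted genes where the parental alleles carry opposite states, or when neighbouring molecules vary without order. A CpG lost or gained by sequence difference from canFam3 would also enter the measured level, and this was not tested. A buccal sample holds epithelial cells and blood cells in proportions that vary between swabs, and a different mixture of cells and a different state of the alleles within cells cannot be told apart here. Methylation also changes with age at particular CpGs, which are called aDMPs.

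Of the 288 members, 60 had a mean level of 20% to 40%, 75 of 40% to 60% and 153 of 60% to 80%, with a median of 61.4%. The members were chosen by these mean levels, which are given as a description with no test. Outside the listed amplicons and the intervals left out, 78 tested CpGs had a mean under 20% and 376 a mean of 80% or over. The members nearest the lower bound were position 52202582 of chromosome 23 (20.2%) and position 8296144 of chromosome 8 (21.8%). Just under that bound were position 38108342 of chromosome 27 (18.98%) and position 31135110 of chromosome 16 (18.4%). At the upper bound, position 56251878 of chromosome 2 (79.9%) and position 39823118 of chromosome 30 (79.7%) were members. The CpGs next above it were position 25449802 of chromosome 18 (80.1%) and position 37737709 of chromosome 26 (80.2%). No gap in the levels therefore set the members apart from the other CpGs.

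The members lay mostly in groups whose other CpGs had means of 80% or over. By the rule, a CpG there that is not a member is either under 20% or at 80% or over. The latter were the more common outside the listed amplicons (376 against 78), so this is a description only. In the largest group, on chromosome 2, the others were only just over the bound, at 80.5% to 82.5%. In 32 groups, holding 155 members, the remaining tested CpGs had means of 80% or over. In 11 groups, holding 79 members, they were under 20%, and in 2 groups with 6 members they lay on both sides. Every tested CpG was a member in 6 groups, with 43 members in all, and 1 further group of 5 members continued into an interval left out. There were 9 groups with a single member and 29 with at least 5. The nearest tested CpG was a median of 8 bp away for members and 6 bp for all tested CpGs.

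The largest group lay on chromosome 2 from position 71018689 to 71018886, where 16 of 19 tested CpGs were members with means of 53.3% to 78.7%. The mean over its members in single dogs ran from 51.4% to 85.6% in FCR with a median of 65.8%, and from 48.7% to 82.8% in MLHD with a median of 68.3%. The breeds therefore covered nearly the same range there, and no member of the group was called for age or breed. On chromosome 8, from position 8296054 to 8296353, 13 of 23 tested CpGs were members. Its first 4 members had means of 21.8% to 24.6%, while the members further on had means of 39.1% to 79.0%, the highest at the last CpG, position 8296353. The order along them was uneven, with a mean of 67.3% at position 8296277 and of 46.2% at position 8296287. The other tested CpGs of the group lay between 4.39% and 18.2%. A group with 12 members of 15 on chromosome 10 (positions 228219 to 228407) ran from 31.7% to 75.3%, and one with 12 of 13 on chromosome 23 (positions 52202516 to 52202736) from 20.2% to 57.6%. Groups with 11 members lay on chromosomes 3, 20, 30 and 31. On chromosome 20 (positions 37743644 to 37743870) the mean over the members differed widely between dogs, from 12.6% to 91.7% in the 42 dogs with all of them.

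**Figure D1:**
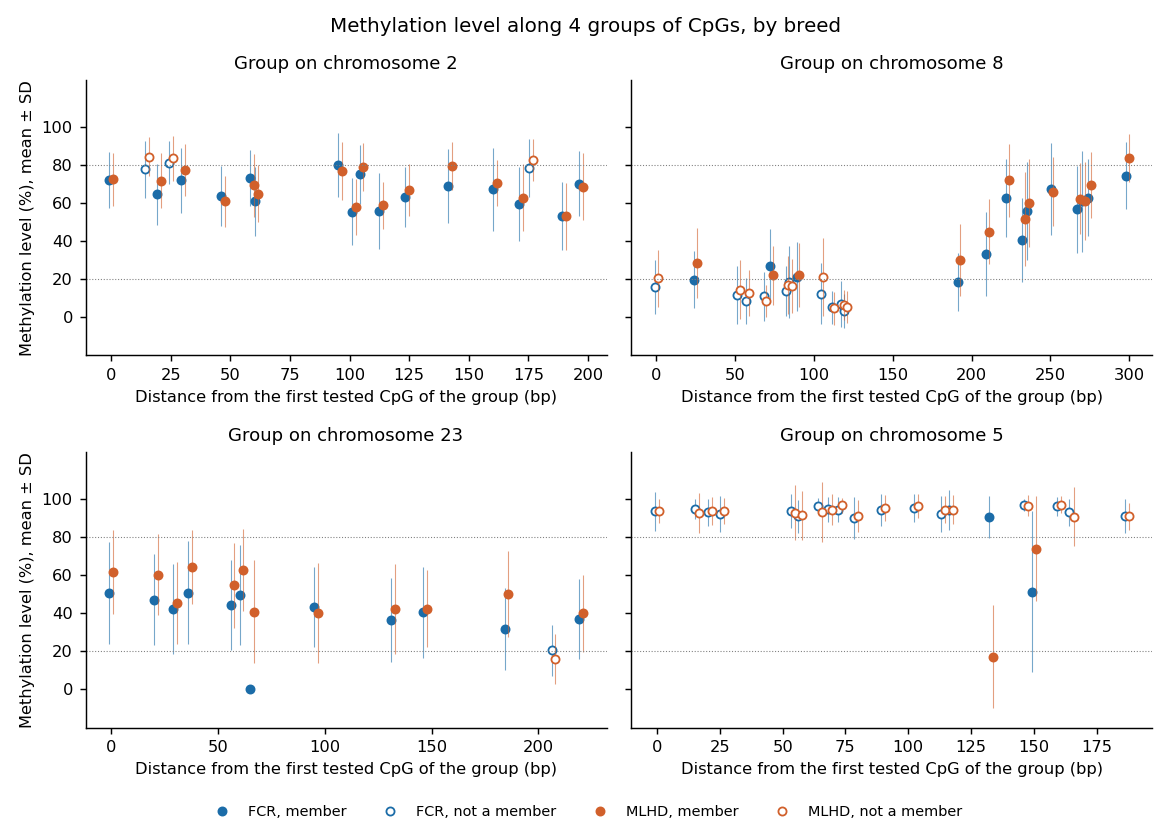
Methylation level (%) against the distance in bp from the first tested CpG in 4 groups, on chromosomes 2, 8, 23 and 5. Points are means over the FCR dogs (blue) and the MLHD dogs (orange), bars are the SD between dogs, filled points are members, open points are other tested CpGs, and dotted lines mark 20% and 80%. On chromosome 8 the members of lowest mean lie first and the highest, 79.0%, last, with an uneven order between them, on chromosome 23 a single CpG is at 0.31% in FCR amid neighbours of higher level, and on chromosome 5 a pair of CpGs lies apart from neighbours near full methylation.

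Among the groups made up wholly of members, that on chromosome 18 (positions 49819417 to 49819548) held 10 CpGs with means of 45.3% to 76.9%. That on chromosome 24 (positions 46997978 to 46998083) held 9 CpGs with means of 27.9% to 75.8%, and that on chromosome 6 (positions 77298683 to 77298797) 8 CpGs with means of 31.1% to 52.8%. The remaining ones lay on chromosome 15 (6 CpGs), chromosome 34 (6 CpGs) and chromosome 38 (4 CpGs). The chromosome 15 group was shallow, with a median coverage of 82 reads, against 6420.5 on chromosome 18. Neighbouring levels could still differ sharply. Over 236 pairs of adjacent tested CpGs at most 20 bp apart of which at least 1 was a member, the median step in the mean level was 10.4 percentage points, and 21 steps were of at least 30 points. The largest, of 50.7 points, lay between positions 54920217 and 54920221 of chromosome 16.

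The level at a member varied widely between dogs. The SD of the level between dogs was 8.36 to 42.4 points at the members, with a median of 21.6 points, of which binomial counting of reads is a small part, with a median SD of 0.831 points at the coverage of the same dogs. Since a level near 0% or 100% leaves little room to vary, the median SD over all tested CpGs (14.0 points) is lower by construction, and the closer comparison is with the 67 intermediately methylated CpGs inside the listed amplicons, where it was 19.7 points. The spread went with the coverage. It had a median of 29.5 points at the 26 members with a median coverage of 50 to 500 reads, 29.01 points at the 59 with 500 to 2000 reads and 19.6 points at the 203 with more. The part of coverage in this was not tested.

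At 194 of the 288 members, most of the covered dogs had a level of 20% to 80%. At the other 94, at least as many dogs lay outside that band as inside it, whether mainly low, mainly high or both. With bounds of 30% and 70% for a dog, 100 members had most dogs inside. There were 205 members with at least 1 dog under 20% and at least 1 at 80% or over, and at 116 the dogs ran from under 5% to over 95%. A single member, position 48220959 of chromosome 20, had all its 47 dogs inside the band, from 23.6% to 79.1% with a median of 51.4%. The mean of the FCR dogs alone was in the band at 267 members, that of the MLHD dogs at 266, and both at 246.

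**Figure D2:**
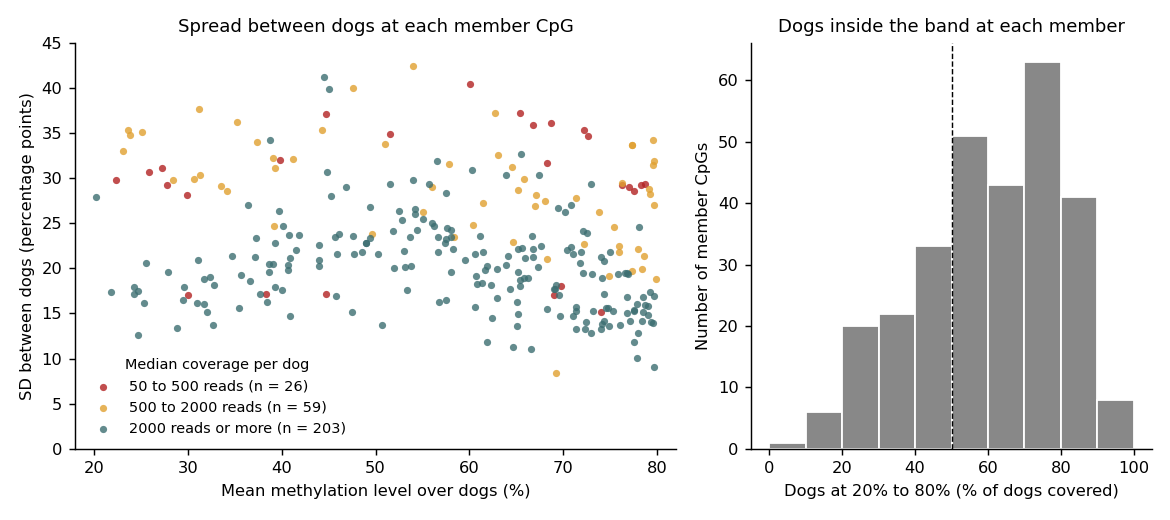
Left, SD of the methylation level between dogs (percentage points) against the mean level over dogs (%) for each of the 288 members, coloured by median coverage per dog. Right, number of members by the share of covered dogs with a level of 20% to 80%, with a dashed line at 50%. The median SD was 29.5 points at 50 to 500 reads and 19.6 points at 2000 reads or more, and 194 members had most dogs inside the band.

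Among the 95 members covered in all 48 dogs, the narrowest were 2 adjacent CpGs of chromosome 30. At position 39823118 the dogs ran from 60.4% to 99.7% with a median of 78.3% (SD 9.02 points), and at position 39823132 from 46.3% to 99.6% with a median of 76.2% (SD 10.1 points). Next came position 17278191 of chromosome 10, from 40.5% to 93.8% with a median of 66.0% (SD 11.1 points). None of these CpGs had a dog under 20%. The widest was position 88318352 of chromosome 5, from 0.29% to 99.4% with a median of 69.3% (SD 42.4 points), where 16 dogs were under 20%, 10 were between the bounds and 22 were at 80% or over. It was followed by position 117222147 of chromosome 1 (SD 41.2 points), with 23, 9 and 16 dogs in these classes, and position 88318369 of chromosome 5 (SD 37.2 points), with 9, 17 and 22. At the widest CpGs the dogs thus lay mainly near the ends of the scale.

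Some members varied more widely than most CpGs of their group. At 26 members in 13 groups the SD was more than 2 times the median SD of the other tested CpGs of the group, as at 72 of all 1105 tested CpGs and at 19 of the 67 intermediate CpGs inside the listed amplicons. The mean level of the others in the group was 80% or over at 19 of these 26 members and under 20% at 6, and 25 of them had dogs both under 20% and at 80% or over. Neighbours so close to the ends of the scale have little room to vary, which raises the ratio by construction. Position 88318352 of chromosome 5 was the extreme, with 5.09 times the spread of its 19 neighbours, whose mean was 91.6% in FCR and 92.9% in MLHD. Position 39823187 of chromosome 30, chosen after its values were seen, had 3.39 times the spread of its group. There 20 dogs were under 20%, 24 between the bounds and 4 at 80% or over, with ranges of 0.04% to 85.0% in FCR (median 55.5%) and 0.08% to 85.0% in MLHD (median 56.7%), while the other 9 CpGs of the group had means of 78.3% in FCR and 76.6% in MLHD. The spread at that CpG was of the same size within both breeds. In all, 5 of the 13 groups held 1 such member and 8 held more, up to the 6 of the chromosome 26 group described next.

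Members of a group could also move together. For each group with at least 5 members, the SD between dogs of the mean over the members was divided by the mean of the members' own SDs, a ratio of 1 meaning that they rise and fall as a block. The ratio had a median of 0.714 and ran from 0.349 to 0.949, where members that vary independently would give a median of 0.354. The independent value differs with the number of members, and some groups lay close to it. It was 0.421 against 0.447 on chromosome 10 (positions 17309560 to 17309782) and 0.411 against 0.408 on chromosome 30 (positions 39823118 to 39823187). The highest ratio, in a group chosen after its values were seen, belonged to 6 members of chromosome 26 (positions 6568015 to 6568074). Their mean ran from 0.18% to 85.4% in FCR with a median of 39.8%, and from 0.31% to 99.6% in MLHD with a median of 25.1%, at a median coverage of 507 reads. All 6 are among the 26 of wide spread. The other 11 tested CpGs of the group had means of 0.48% to 11.2% over all dogs. The lowest ratio, 0.349, was on chromosome 31 (positions 38625160 to 38625453), with 11 members and 30 dogs with all of them, where independent members would give 0.302. CpGs of a group lie close together and may be read on the same molecules, so they cannot be taken as independent measurements.

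A dog could also be low or high across many groups. For each of the 47 dogs other than MLHD replicate 28, the difference between its level and the mean over dogs was averaged over its members. This shift ran from -14.3 points (FCR replicate 13, below the mean in 35 of its 49 groups) to 11.2 points (MLHD replicate 29, below the mean in 13 of its 48), with an SD of 6.50 points between dogs. More than 60% of the groups were below the mean in 14 dogs, and fewer than 40% in 22 dogs. The lowest, median and highest shifts were -14.3, -0.791 and 8.72 points in the 24 FCR dogs, and -8.06, 2.22 and 11.2 points in 23 MLHD dogs, so the breeds overlapped over most of the range. The shift had the same sign as that over the CpGs of 80% and over in 39 of 47 dogs, and as that over the intermediate CpGs of the listed amplicons in 24 of 47. Over the CpGs of 80% and over the shift ran from -4.27 to 2.35 points. Those CpGs include ones in the same groups as members, so the agreement in sign is not between separate loci.

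**Figure D3:**
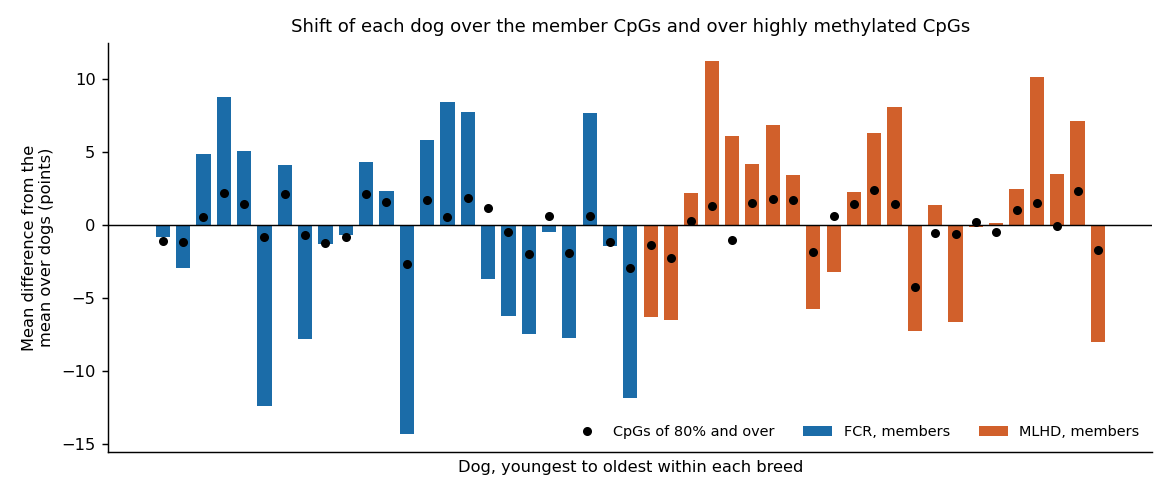
Mean difference of each dog from the mean over dogs (percentage points), averaged over the member CpGs (bars, FCR blue and MLHD orange) and over CpGs outside the listed amplicons with a mean of 80% or over (black points). The 47 dogs are ordered by age within each breed. Bars run from -14.3 to 11.2 points and black points from -4.27 to 2.35 points, with the same sign in 39 dogs. Some CpGs of the black points lie in the groups of the members.

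Whether the members change with age was asked by regressing the methylation level on age at every tested CpG by ordinary least squares, as for aDMPs, with Storey q-values over all tested CpGs and a threshold of 0.05. Slopes were fitted per week of age and are given as percentage points per year of 52 weeks. In all dogs, 17 of the 288 members were called (5.9%), in 11 groups, against 12.1% of all tested CpGs and 37.3% of the intermediate CpGs in the listed amplicons (25 of 67). The study chose its amplicons for dog and naked mole rat by conservation with human aDMPs. It lists 14 for dog, while its text gives a larger number for dog and naked mole rat. Whether the groups of the members were also chosen in this way is not given in the sources used here. Methylation rose with age at 13 members (4.51%, against 11.1% of all tested) and fell at 4 (1.39%, against 0.995%). The slopes were above 0 at 140 of 288 members with a median of -0.0639 points per year, at 689 of all 1105 tested CpGs with a median of 0.170 points per year, and at 55 of the 67 listed ones. With breed as a covariate, 112 slopes were above and 176 below 0 (median -0.266 points per year, against 0.159 over all tested CpGs), and in the dogs of at least 2 years 108 were above and 176 below (median -0.312, against 0.109). With sex as a covariate 143 were above and 145 below 0, and in the age range shared by the breeds 135 and 149. CpGs of a group are linked. By the median slope of each group, 28 of 52 groups were below 0 over all dogs, 35 of 52 with breed as a covariate and 34 of 50 in the dogs of at least 2 years. Most members thus showed no slope past the threshold. The slopes were split nearly evenly over all dogs, and whether they leaned below 0 depended on the fit.

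The smallest q-value belonged to the last CpG of the chromosome 6 group, position 77298797. The level there was 1.55% to 42.99% with a median of 10.5% in the 13 dogs under 2 years, and 0.32% to 95.4% with a median of 55.8% in the 17 dogs of at least 10 years. It rose by 3.43 points per year (standard error 0.706, q = 4.68e-04 from the least-squares fit over 48 dogs). In the same group, position 77298715 ran from 2.09% to 51.5% with a median of 8.35% in the young dogs and from 0.37% to 93.5% with a median of 49.5% in the old ones, a rise of 2.81 points per year (standard error 0.703, least-squares q = 0.00379). All 8 CpGs of the group had slopes above 0, from 1.19 to 3.43 points per year, and 3 of them were called, the third being position 77298765 (q = 0.0487). Young and old dogs overlapped at each of these CpGs, and the lowest level at position 77298797, 0.32%, was that of an old dog.

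On chromosome 32, position 32315040 was at 0% to 44.5% with a median of 0.72% in 9 young dogs and at 0% to 99.7% with a median of 79.5% in 16 old ones. Its slope was the steepest rise, 4.35 points per year (standard error 1.12, least-squares q = 0.00589 over 39 dogs), and all 5 members of its group had slopes above 0. A level of 0% is a count of 0 methylated reads, which at the 1023 and 122 reads of the 2 MLHD dogs concerned allows up to 0.293% and 2.46%. In the chromosome 8 group, position 8296144 was at 0.07% to 30.9% with a median of 7.89% in 12 young dogs and at 0.32% to 48.3% with a median of 29.4% in 17 old ones (1.81 points per year, standard error 0.512, least-squares q = 0.0111). There 12 of the 13 members had slopes above 0, and positions 8296246 (q = 0.0184) and 8296079 (q = 0.0484) were called as well. The CpGs called lay at the low end of that group, with means of 21.8% to 24.3%.

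The fifth rise in order of p was found at position 27679765 of chromosome 31, from 4.27% to 89.4% with a median of 23.4% in 10 young dogs and from 31.9% to 100% with a median of 84.2% in 15 old ones (3.52 points per year, standard error 0.995, least-squares q = 0.0125). It was not called with breed as a covariate (q = 0.0524). The other rises called were position 17309732 of chromosome 10, position 1167390 of chromosome 27 and positions 48880991, 48881069 and 48881086 of chromosome 5. The chromosome 5 CpGs were covered in 32 dogs, with a median coverage of 273.5 to 277.5 reads, and all 8 members of that group had slopes above 0.

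Methylation fell with age most firmly at position 7213938 of chromosome 34, in a group made up wholly of members. The 11 young dogs ran from 41.6% to 95.9% with a median of 86.1%, and the 15 old dogs from 1.99% to 91.9% with a median of 52.5%. The slope was -3.44 points per year (standard error 0.750, least-squares q = 0.00110 over 44 dogs), and it was called under all 12 alternatives that gave a value. The other 5 members of the group, the nearest 10 bp away, had slopes of -0.794 to 0.883 points per year and none was called. At position 67448880 of chromosome 5 the level was 70.4% to 99.3% with a median of 85.0% in 13 young dogs and 31.8% to 99.6% with a median of 72.6% in 17 old ones (-1.69 points per year, standard error 0.496, least-squares q = 0.0143). That CpG had the highest mean of its 9 members, 8 of which had slopes below 0.

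Breed and age are partly confounded, since 9 of the 13 dogs under 2 years were FCR and 14 of the 17 of at least 10 years were MLHD. The remaining falls, at position 117222147 of chromosome 1 and position 54920221 of chromosome 16, were not called with breed as a covariate (q = 0.215 and 0.525). The same held for position 1167390 of chromosome 27 (q = 0.369), and these 3 CpGs were among those called between the breeds. Position 77298765 of chromosome 6 (q = 0.0677) and positions 8296079 (q = 0.106) and 8296246 (q = 0.0656) of chromosome 8 were not called in that fit either, and the other 10 of the 17 calls stood while 5 further members were called. In the dogs of at least 2 years 1 member was called, position 7213938 of chromosome 34, and in the dogs of the age range shared by the breeds 4 were.

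**Figure D4:**
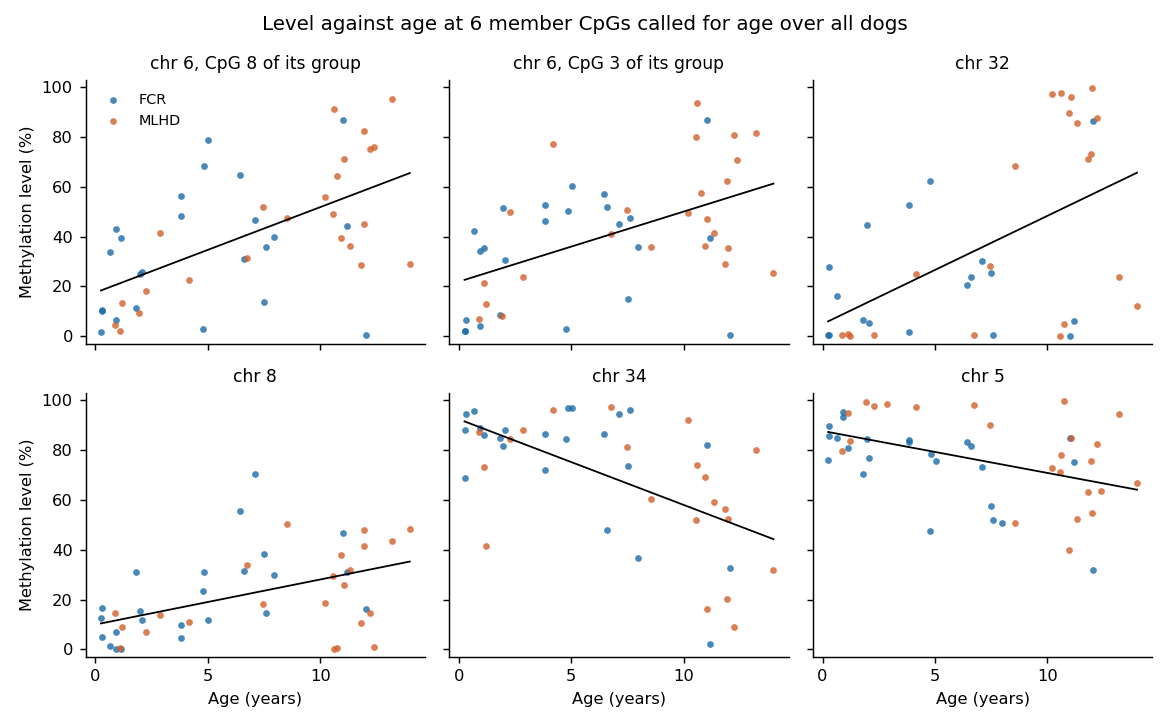
Methylation level (%) of each dog against age (years) at 6 members called for age over all dogs, FCR in blue and MLHD in orange, with the least-squares line over all dogs in black. Upper panels and the chromosome 8 panel show rises of 1.81 to 4.35 points per year, and the chromosome 34 and 5 panels falls of 3.44 and 1.69 points per year. Old dogs of very low level are seen on chromosomes 6, 8 and 32.

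Within FCR, 6 of 285 members were called (2.11%, against 6.17% of 1103 tested CpGs), 3 rising (against 5.8% of all tested) and 3 falling (against 0.363%). The rises were at position 8296144 of chromosome 8 (2.85 points per year, standard error 0.848, least-squares q = 0.0376), position 17550556 of chromosome 11 (2.75 points per year, q = 0.0376) and position 48880991 of chromosome 5 (6.92 points per year, q = 0.0412, 17 dogs). The falls were at position 48220930 of chromosome 20 (-2.65 points per year, q = 0.0310), position 67448880 of chromosome 5 (-2.49 points per year, q = 0.0376) and position 7213938 of chromosome 34 (-3.86 points per year, q = 0.0399). Slopes in FCR were below 0 at 184 of 285 members with a median of -0.683 points per year, while the median over all tested CpGs was 0.125 points per year. None of the 6 was called with Benjamini-Hochberg adjusted p-values or in the dogs of at least 2 years. At an unadjusted p under 0.05, 41 members passed in FCR (14.4%, against 18.9%), 24 of them falling (8.42%, against 3.9%).

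Within MLHD, 1 of 288 members was called (0.347%, against 2.9% of all tested), position 77298797 of chromosome 6. Its levels in the 24 MLHD dogs ran from 2.03% to 95.4% with a median of 43.2%, and they rose by 4.49 points per year (standard error 0.885, least-squares q = 0.00662). In FCR the same CpG ran from 0.32% to 86.9% with a median of 34.8% and had a slope of 2.22 points per year (standard error 1.35, q = 0.241). The difference in slope between the breeds was -2.27 points per year (FCR minus MLHD, standard error 1.58), with an adjusted p of 0.729 from the interaction term of the least-squares fit. Without MLHD replicate 28, the dog of lowest coverage, position 56251609 of chromosome 2 was called as well (-3.15 points per year, q = 0.0384 over 23 dogs). The slopes of MLHD were above 0 at 148 of 288 members with a median of 0.0250 points per year. That split depended on the fit. Without MLHD replicate 28 it was 138 of 288 (median -0.0865 points per year), in the dogs of at least 2 years 91 of 287 (median -0.656) and with sex as a covariate 185 of 288 (median 0.431). The youngest 7 MLHD dogs, up to 4.16 years, were all male, so age and sex are partly confounded within MLHD.

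The difference of slopes was tested as the interaction of age with breed at each CpG. None of 285 members was called with Benjamini-Hochberg adjusted p-values (against 0% of 1090 tested CpGs), and 24 had an unadjusted p under 0.05 (8.42%, against 7.34%). The limma and quasi-binomial models gave 0 calls as well. The smallest p-values belonged to position 49819442 of chromosome 18, with slopes of -1.88 points per year in FCR and 2.07 in MLHD, position 54920154 of chromosome 16, with -3.50 and 1.16, and position 48220930 of chromosome 20, with -2.65 and 0.680. All 3 had an adjusted p of 0.622 from the least-squares interaction term.

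Differences between the breeds were asked with age as a covariate, and 8 of 285 members were called, each in a group of its own (2.81%, against 1.28% of 1090 tested CpGs). A CpG that is high in one breed and low in the other has an intermediate mean by construction, so the share of members called is not independent of the rule. At 6 of the 8 the mean of at least 1 breed lay outside the band of 20% to 80%. FCR dogs were higher at 3 of the called members (against 0.734% of the tested CpGs) and MLHD dogs at 5 (against 0.55%). Over all 285 members the median difference was -2.71 points (FCR minus MLHD), against -0.124 points over all tested CpGs, with 175 of 285 members lower in FCR. The median over the members was -1.10 points with log10 of the summed coverage as a covariate, -1.41 points over the 95 members covered in every dog, and -5.61 points in the dogs of at least 2 years, where 203 of 284 were lower in FCR.

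The greatest difference was at position 88318352 of chromosome 5. FCR dogs ran from 59.1% to 99.4% with a median of 93.9%, and MLHD dogs from 0.29% to 89.9% with a median of 1.20%. There were 20 FCR dogs and 2 MLHD dogs at 80% or over, and 16 MLHD dogs but no FCR dog under 20%. Corrected for age, FCR was 75.0 points higher (standard error 6.67, adjusted p = 6.27e-12 from the least-squares fit). On chromosome 16, position 54920221 ran from 21.3% to 96.4% with a median of 84.3% in FCR and from 0.40% to 69.2% with a median of 1.83% in MLHD (69.3 points higher in FCR, standard error 6.35, adjusted p = 1.57e-11). The third, position 117222147 of chromosome 1, ran from 17.5% to 98.9% with a median of 88.4% in FCR and from 0.16% to 82.2% with a median of 1.004% in MLHD (58.2 points higher in FCR, standard error 8.21, adjusted p = 1.33e-06). The breeds overlapped at each of these CpGs. On chromosome 5 the overlap came from 2 MLHD dogs, at 84.6% and 89.9%.

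The reverse was seen at position 52202582 of chromosome 23, where all 24 FCR dogs lay between 0.07% and 0.97% with a median of 0.25%. The 23 MLHD dogs ran from 0.42% to 95.8% with a median of 37.1%, 5 of them under 20%, and FCR was lower by 43.1 points after correction for age (standard error 6.26, adjusted p = 2.68e-06 from the least-squares fit). The nearest tested CpG was 5 bp away. Over the other 12 tested CpGs of the group the mean was 41.3% in FCR and 48.4% in MLHD, and none was called. Position 1167390 of chromosome 27 ran from 0.11% to 97.7% with a median of 3.59% in FCR and from 0.83% to 99.0% with a median of 90.5% in MLHD (-48.6 points, standard error 9.96, adjusted p = 0.00157). Here each breed held dogs at both ends of the scale, with 15 FCR dogs and 2 MLHD dogs under 20%.

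The remaining members called between the breeds differed less. At position 80103713 of chromosome 2, FCR dogs ran from 0.07% to 89.8% with a median of 53.0% and MLHD dogs from 62.9% to 99.9% with a median of 87.4% (-35.9 points, standard error 6.77, adjusted p = 4.03e-04). At position 50345056 of chromosome 25 the ranges were 0.30% to 90.1% with a median of 43.7% and 34.8% to 99.0% with a median of 87.8% (-38.7 points, standard error 8.35, adjusted p = 0.00299). Position 38471403 of chromosome 30 ran from 0.37% to 65.2% with a median of 22.4% in FCR and from 18.7% to 92.8% with a median of 49.3% in MLHD (-27.6 points, standard error 6.27, adjusted p = 0.00603). That call was lost with log10 of the summed coverage as a covariate (adjusted p = 0.0626), and the other 7 stood under every alternative that gave a value. The summed coverage had a median of 4013280.5 reads in FCR and 3385013 in MLHD.

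Each of these calls fell on a single CpG of its group, and whether a sequence difference there enters the level was not tested. No other tested CpG in any of the 8 groups was called between the breeds. Of the 8 members called, 6 were among the 26 whose spread exceeded 2 times that of their group. That spread was taken over both breeds together, so a difference between the breeds widens it by construction and the overlap is no separate result. Around position 88318352 of chromosome 5 the age-corrected difference at the other 19 tested CpGs ran from -25.4 to 3.05 points with a median of -0.295 points. Around position 54920221 of chromosome 16 it ran from -24.0 to 5.49 points over 13 CpGs with a median of -2.02 points, and around position 1167390 of chromosome 27 from -18.9 to 7.12 points over 22 CpGs with a median of 1.15 points. In the chromosome 23 group, where the called CpG was lower in FCR, it ran from -21.8 to 1.51 points over 12 CpGs with a median of -8.52 points. In the chromosome 2 group, also called lower in FCR, all 7 others lay below 0, from -23.0 to -0.402 points with a median of -3.55 points. The medians around the called CpGs of chromosomes 1, 25 and 30 were -5.97, -1.22 and -1.74 points.

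**Figure D5:**
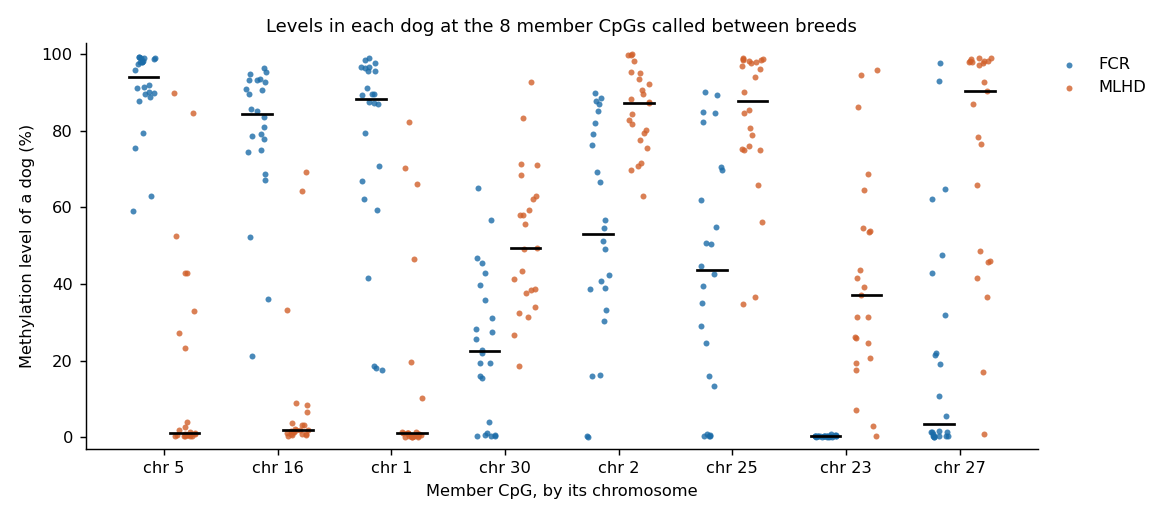
Methylation level (%) of each dog at the 8 members called between breeds, FCR in blue and MLHD in orange, labelled by chromosome, with black bars at the medians. Points are spread sideways for display. The FCR dogs lie between 0.07% and 0.97% on chromosome 23, and the medians differ most on chromosome 5, 93.9% in FCR and 1.20% in MLHD.

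Between the sexes, with age and breed as covariates, none of 285 members was called by Benjamini-Hochberg adjusted p-values (against 0% of 1090 tested CpGs). There were 9 members with an unadjusted p under 0.05 (3.16%, against 5.05%), and the limma and quasi-binomial models gave 0 calls too. No tested CpG lay on the X chromosome, and so no member did. The smallest p-values belonged to position 17278191 of chromosome 10 (11.0 points higher in males, standard error 3.24, adjusted p = 0.512 from the least-squares fit), position 88318369 of chromosome 5 (29.03 points higher, adjusted p = 0.916) and position 6437300 of chromosome 15 (12.9 points higher, adjusted p = 0.916).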

How the data were processed

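Buccal DNA from 48 dogs was bisulphite converted, amplified and sequenced on a MiSeq instrument. The deposited values are 2 counts per CpG in each dog, of methylated reads (M) and of all reads (T), without normalization, which the authors obtained by aligning to canFam3 (BISMARK, run with Bowtie2). The submitters' processing notes give Bismark 0.13.1, while the methods name a later version. Off-target reads were removed according to the methods, yet 66 of the 80 groups of tested CpGs lie outside the 14 dog amplicons listed with primers. The paper gives 48 amplicons for dog and naked mole rat. Whether these groups were among the targeted regions is therefore not known here. The files list 12940 positions with coverage down to 1 read, and a minimum of 50 reads per dog was set here. The processing bears on the members: a CpG lost or gained by sequence difference from canFam3, unequal amplification of alleles and incomplete conversion would each enter M/T, and none was tested.

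Samples were grouped by breed as labelled. The fraction M/T was regressed on age in weeks (years times 52) by ordinary least squares over all tested CpGs (R 4.3.3, with the data.table package, version 1.17.8), in all dogs (1105 CpGs) and within FCR (1103) and MLHD (1105), with Storey q-values. Breed, the interaction of age with breed and sex were tested with Benjamini-Hochberg adjustment over 1090 CpGs, with the covariates named beside each result. Alternatives were a quasi-binomial model, limma 3.58.1, coverage minimums of 20 and 100 reads and those of the closing section. Fits were also run on simulated data whose spread between dogs was capped and whose CpGs varied independently. That setting is easier than the data and is not used to judge the calls. Figures were drawn with matplotlib 3.10.9. The p-values measure the spread between dogs, each sampled once.

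The members and lists were chosen with earlier results of these data known. CpGs were named by rule: members called (up to 10, otherwise the 5 of smallest p in each direction), the 3 of smallest p where none was called, the 5 groups with most members, the 3 widest and narrowest members covered in all dogs, and those at the bounds. Lists of imprinted and age-predictor genes were drawn up but not used here, since genes were not assigned to CpGs.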

Additional observations from a re-analysis of the deposited data

How the results depend on the processing

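Of the 17 members called for age in all dogs, counts fell to 7 among the 95 members covered in every dog, to 1 in dogs of at least 2 years, to 4 in dogs of the shared age range and to 9 among members with mean levels of 30% to 70%. The 6 of FCR became 13 with the quasi-binomial model, 0 in dogs of at least 2 years, 1 with the natural log of age, 0 with Benjamini-Hochberg adjustment and 1 among members with means of 30% to 70%. The single call of MLHD became 0 in dogs of at least 2 years and 2 without MLHD replicate 28. The 8 calls between breeds became 4 among the CpGs covered in every dog. Members with most dogs between the bounds went from 194 to 100 with bounds of 30% and 70%. Fewer CpGs or dogs entered several of these fits, and for the others the cause was not tested. Under the remaining alternatives each count stayed within 1.5 times its value, and the interaction and sex gave 0 calls throughout. A similar count did not always mean a similar split of directions. With the quasi-binomial model 21 members were called for age in all dogs, 10 of them rising, against 13 of the 17 in the main fit. Some of these 21 were not called in the main fit. No named member changed the sign of its estimate. The median SD between dogs over the members was 21.6 points, and it was 20.96 points over those covered in every dog. No paired analysis was possible because the FCR and MLHD samples come from different dogs and no matching between them is given. Leaving out MLHD replicate 28, an alternative for the spread and the bands chosen after seeing the data, could not be applied to FCR. Members under 500 reads are few, and levels of 0% there allow up to 6%.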
